A study of Mus musculus with 6 samples.

Results

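Fc receptors bind the constant part of antibodies, and in mice the activating IgG receptors Fcgr1, Fcgr3 and Fcgr4 signal through the shared adaptor chain encoded by Fcer1g. Fcgr2b, the inhibitory IgG receptor, carries its own inhibitory tail, and Tyrobp encodes a second adaptor, DAP12, for other myeloid receptors. The scavenger receptors Msr1 and Marco take up modified lipoproteins and microbes, Cd68 is an endosomal and lysosomal protein of macrophages, and Csf1r is the receptor for the macrophage growth factors CSF1 and IL-34. The signals of these 10 genes were followed in mouse skin. Their probe sets were taken by gene symbol, as those annotated with 1 of the 10 symbols and with no other. That gave 21 probe sets, of 45037 non-control probe sets on the array.

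The study compared skin from 3 knock-in mouse samples (genotype code KA, source KAB6, strain background C57BL/6) with skin from 3 wild-type C57BL/6 samples, on 6 single-channel Affymetrix arrays. The labels do not name the altered gene and give no sex, age, body site or treatment for either group. Whether each array holds a different animal is not stated either, so p-values measure only the spread between these samples, which may be technical. The signals of keratinocyte and dermal genes were high on all 6 arrays, with Krt14 between 9378 and 11764 in knock-in and between 5905 and 6530.1 in wild-type.

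Xist, the RNA of the inactive X chromosome, read 3743, 4005 and 3442 on the knock-in arrays, against 28.9, 32.5 and 27.8 on the wild-type arrays. The Y-linked genes Eif2s3y, Kdm5d and Uty were between 0.494 and 7.15 in knock-in, against 174 to 721 in wild-type. In all comparisons that follow, sex and genotype cannot be told apart.

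Fcgr2b, Fcgr4 and Fcgr3 lie in that order along mouse chromosome 1 with no other annotated protein-coding gene between them, and Fcer1g lies further along the same chromosome. Fcgr1 is on chromosome 3. The stretches of 120 bases before the transcription start of the 4 IgG receptor genes are shown so that the start regions of these related receptors can be set side by side. They are RefSeq sequences of GRCm38.p6, written 5′ to 3′ on the strand of the gene. Capitals mark GAGGAA or its reverse complement TTCCTC, a form of the sites of PU.1, a transcription factor of myeloid cells. The shorter core of such sites, GGAA, was not marked or searched, and it also occurs in the Fcgr2b stretch. These letters were chosen after the sequences had been read.
Fcgr1, chr3:96293970-96294089, minus strand: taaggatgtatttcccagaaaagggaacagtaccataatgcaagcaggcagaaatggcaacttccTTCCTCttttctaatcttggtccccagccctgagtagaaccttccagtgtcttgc
Fcgr3, chr1:171059404-171059523, minus strand: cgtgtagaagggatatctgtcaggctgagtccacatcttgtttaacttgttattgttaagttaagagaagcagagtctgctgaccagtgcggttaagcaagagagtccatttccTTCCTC
Fcgr4, chr1:171018806-171018925, plus strand: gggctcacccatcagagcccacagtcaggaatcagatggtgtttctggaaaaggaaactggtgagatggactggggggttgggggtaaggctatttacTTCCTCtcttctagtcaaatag
Fcgr2b, chr1:170976072-170976191, minus strand: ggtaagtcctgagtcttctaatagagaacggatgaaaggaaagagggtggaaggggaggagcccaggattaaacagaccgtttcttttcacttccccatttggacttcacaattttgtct
The Fcgr3 start used here lies inside the annotated span of the gene.

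The RefSeq table matched 7 of the 10 genes, and all 7 were searched for GAGGAA on both strands over the 250 bases before the start. The letters were present in 5 of them, namely Fcgr1, Fcgr3, Fcgr4, Marco and Cd68, and not in the windows of Fcgr2b and Fcer1g. Of 32851 promoter windows of that length, 23.3% held them. Because the letters were picked from these sequences, nothing is read from the count against that share. Of the genes with the letters, Fcgr3, Fcgr4 and Marco rose in knock-in, while Fcgr1 and Cd68 did not pass. Fcgr2b and Fcer1g rose without GAGGAA in their windows, although both windows hold the shorter GGAA. A link between the letters and the changes was not tested. A match of letters is a description of the sequence and not a measured binding site. Spi1, which encodes PU.1 itself, read 117, 79.1 and 107 in knock-in, against 37.3, 71.5 and 55.7 in wild-type. Its log2 difference of 0.74 ± 0.21 did not pass (limma, adjusted p = 0.0542). Spi1 was named after its values were seen, and its adjusted p ran from 0.0184 after median centring to 0.168 over the alternatives tried.

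The comparison asks which of these receptor genes differed in signal between knock-in and wild-type skin. Of the 10 genes, each read by its brightest probe set, 7 rose in knock-in, 0 fell and 3 did not pass an adjusted p of 0.05 (limma). Fcgr3, Fcgr4, Fcgr2b, Fcer1g, Tyrobp, Msr1 and Marco rose, while Fcgr1, Cd68 and Csf1r did not pass. Over all genes on the array, 8.48% passed as higher and 9.05% as lower, and the median log2 difference was -0.02, against 1.09 over the 10 receptor genes. Over all 21 probe sets, 13 passed as higher, 0 as lower and 8 did not pass, where 6.01% of all non-control probe sets passed as higher and 7.81% as lower (13.8% in all). The 13 were also the number of probe sets whose knock-in signals all lay above the wild-type signals, where 13.1% of all probe sets did and 19.6% lay the other way. Counted by gene, 7 of 10 were apart in that way, where 16.9% of all genes were and 20% lay the other way, and 17.5% of all genes passed in either direction. Centring each array on its median turned the split over all probe sets from 2705 higher and 3519 lower into 4103 higher and 2097 lower, and 9 of the receptor genes then passed as higher. Without knock-in replicate 1, 2 or 3 the number of receptor genes that passed was 4, 9 and 4, and without wild-type replicate 1, 2 or 3 it was 4, 6 and 3.

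**Figure D1:**
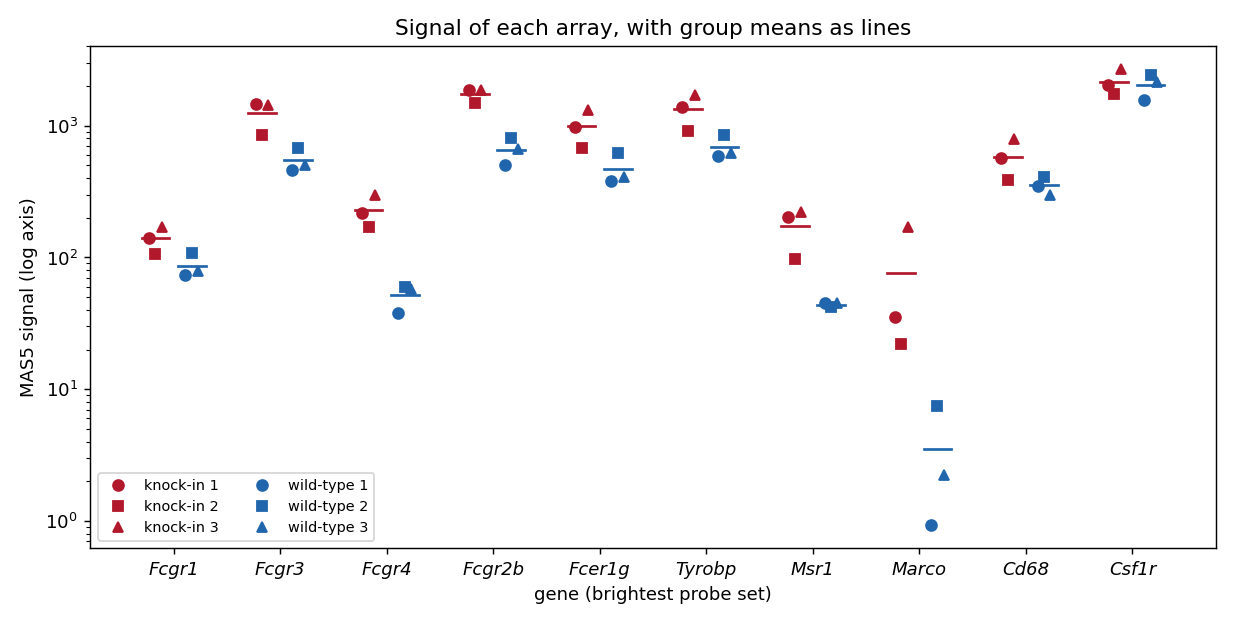
MAS5 signal of the brightest probe set of each gene on every array, on a log axis, with knock-in arrays left of wild-type arrays, markers for the replicate number and lines at the group means (n = 3). Knock-in and wild-type points are apart for 7 genes and overlap for Fcgr1, Cd68 and Csf1r. Heights are not comparable between genes, because probe sets differ in how strongly they bind.

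Among the activating receptors, Fcgr4 had the largest difference. Fcgr4 (1425225_at), the receptor for IgG2a and IgG2b, read 217, 170.0 and 299 on the knock-in arrays, against 37.9, 60.2 and 57.8 on the wild-type arrays. The lowest knock-in array was above every wild-type array, and the log2 difference was 1.83 ± 0.21 (limma, Benjamini-Hochberg adjusted p = 0.00135). Here and below, differences are knock-in minus wild-type of log2(signal + 16) with their standard errors, and p-values are adjusted over all 45037 probe sets. Fcgr4 passed with each array left out, with adjusted p between 0.00215 and 0.00930.

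Fcgr3 (1448620_at), a low-affinity activating receptor, read 1475, 854 and 1444 in knock-in, against 462, 674 and 503 in wild-type. The groups did not overlap, although knock-in replicate 2 stood well below the other knock-in arrays. Its log2 difference was 1.16 ± 0.22 (limma, adjusted p = 0.0108), with an adjusted p of 0.0517 without knock-in replicate 3 and 0.0511 without wild-type replicate 3. Fcgr1 (1417876_at), the high-affinity receptor, read 141, 106 and 171 in knock-in, against 73.2, 108 and 79.2 in wild-type. Its groups overlapped, because knock-in replicate 2 lay just below wild-type replicate 2. The log2 difference of Fcgr1 was 0.59 ± 0.19 (95% interval 0.16 to 1.03) and did not pass (limma, adjusted p = 0.0785), but without knock-in replicate 2 it was 0.75 (adjusted p = 0.0439). The dimmer probe set of Fcgr1, 1436625_at, read 44.5, 31.6 and 66.7 in knock-in, against 27.5, 55.5 and 50.9 in wild-type, a log2 difference of 0.07 ± 0.26.

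Fcgr2b, the inhibitory receptor, rose on 4 of its 5 probe sets. The brightest, 1435477_s_at, read 1879, 1501 and 1874 in knock-in, against 502, 804 and 666 in wild-type. All 3 knock-in arrays lay well above the wild-type arrays, and the log2 difference was 1.41 ± 0.17 (limma, adjusted p = 0.00143). Probe sets 1451941_a_at, 1435476_a_at and 1455332_x_at differed by 1.60, 1.19 and 1.56, with adjusted p from 0.00107 to 0.00705. The fifth, 1447622_at, read below 6 on every array and did not pass (-0.24 ± 0.12, adjusted p = 0.257). The outer domains of mouse Fcgr2b and Fcgr3 are closely alike, and the 4 probe sets that rose carry a suffix for probes that match more than 1 transcript or gene. Reads from Fcgr3 on these probe sets, or the reverse, were not tested.

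Both adaptors rose. Fcer1g (1418340_at), the chain that activating Fc receptors and FceRI need to signal, read 977, 678 and 1306 in knock-in, against 379, 624 and 409.9 in wild-type. Tyrobp (1450792_at) read 1380.4, 909 and 1719.95 in knock-in, against 589, 855 and 622 in wild-type. In both genes the groups were apart only by the gap between knock-in replicate 2 and wild-type replicate 2. The log2 differences were 1.03 ± 0.25 for Fcer1g (limma, adjusted p = 0.0290) and 0.91 ± 0.23 for Tyrobp (adjusted p = 0.0320). Leaving out single arrays ended both calls. Without knock-in replicate 1 or 3 or wild-type replicate 1 or 3 the adjusted p was 0.0894, 0.0950, 0.0815 and 0.110 for Fcer1g, and 0.101, 0.103, 0.0882 and 0.117 for Tyrobp.

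Msr1, scavenger receptor A, rose on all 4 of its probe sets. On the brightest, 1448061_at, knock-in arrays read 202, 97.7 and 221, against 44.9, 41.9 and 45.0 on the wild-type arrays, a log2 difference of 1.59 ± 0.26 (limma, adjusted p = 0.00568). Probe set 1422062_at read 180.2, 94.2 and 201 in knock-in, against 21.6, 19.1 and 17.8 in wild-type, a difference of 2.24 ± 0.25 (adjusted p = 0.00107). Knock-in replicate 2 had less than the other knock-in arrays on each Msr1 probe set, and still more than every wild-type array. The other 2 probe sets, 1425434_a_at and 1425435_at, differed by 2.11 and 1.46. Wild-type signals of 3 of the 4 probe sets were between 7.66 and 24.2, near the offset of 16, which makes their differences too small. With an offset of 1 the difference of 1422062_at was 2.89, and with 64 it was 1.38.

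Marco, a related scavenger receptor of the class A family, was dim. Its brighter probe set, 1449498_at, read 35.1, 22.2 and 169.7 in knock-in, against 0.925, 7.41 and 2.24 in wild-type. Knock-in replicate 3 carried most of the signal, and the wild-type values are too low to give a fold. The log2 difference of 1.88 ± 0.51 passed narrowly (limma, adjusted p = 0.0446). It did not pass without knock-in replicate 1 (0.0733) or wild-type replicate 1, 2 or 3 (0.108, 0.0809 and 0.137), and without knock-in replicate 3 it was 1.19 (adjusted p = 0.0229). With an offset of 1 it was 3.80 (adjusted p = 0.0130), and with an offset of 64 it was 0.90 (adjusted p = 0.112). The second probe set, 1458297_s_at, read 16.3, 1.13 and 55.3 in knock-in, against 2.40, 2.67 and 1.72 in wild-type, and did not pass (0.90 ± 0.43, adjusted p = 0.216). Without knock-in replicate 2 it passed, with a difference of 1.39 (adjusted p = 0.0332).

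Cd68 (1449164_at) read 565, 389 and 794 in knock-in, against 352, 409 and 300.5 in wild-type. Knock-in replicate 2 lay below wild-type replicate 2, and the log2 difference of 0.65 ± 0.23 (95% interval 0.13 to 1.17) did not pass (limma, adjusted p = 0.103). Without knock-in replicate 2 it was 0.90 (adjusted p = 0.0210).

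Csf1r showed no difference that its 3 probe sets could resolve. The brightest, 1419872_at, read 2032, 1729 and 2707 in knock-in, against 1555, 2429.8 and 2163 in wild-type. The groups were interleaved, and the log2 difference was 0.07 ± 0.20 (95% interval -0.38 to 0.53, limma adjusted p = 0.861). The probe sets 1419873_s_at and 1423593_a_at differed by -0.04 ± 0.22 and 0.31 ± 0.19 (adjusted p = 0.939 and 0.349). An increase of the size seen for Fcgr4 or Msr1 lies outside the interval of each Csf1r probe set.

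**Figure D2:**
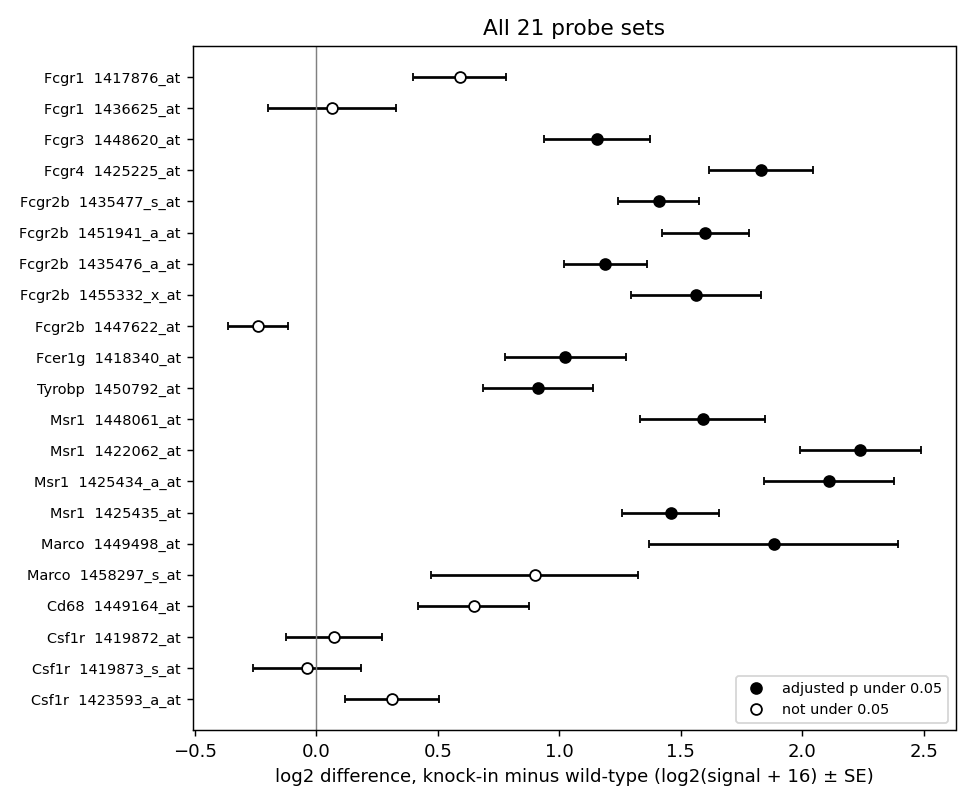
Log2 difference of each of the 21 probe sets (knock-in minus wild-type, log2(signal + 16)) with its standard error (n = 3 arrays a group); filled points passed an adjusted p of 0.05. The 4 Msr1 probe sets and 4 of the 5 Fcgr2b probe sets lie between 1.19 and 2.24, while the 3 Csf1r probe sets lie between -0.04 and 0.31.

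The arrays of a group differed from each other in a way most of the receptor genes shared. Knock-in replicate 2 was the lowest knock-in array for 10 of the 10 genes, and wild-type replicate 2 the highest wild-type array for 9 of the 10. Over all genes these shares were 37.4% and 35.4%. The same arrays took the same places for the pan-leukocyte list (Ptprc, Coro1a, Laptm5, Cd53, Cd52, Arhgdib, Lcp1 and Cd48). There, knock-in replicate 2 was lowest for 8 of 8 genes and wild-type replicate 2 highest for 8 of 8. In the mast cell list knock-in replicate 2 was lowest for 0 of 10 genes. In bulk skin, fewer cells of a type and less RNA per cell cannot be told apart.

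The receptor genes were therefore also set against the mean log2(signal + 16) of the 8 pan-leukocyte genes on the same array. That mean was 8.79 ± 0.39 in knock-in and 8.48 ± 0.28 in wild-type (SD, n = 3), a difference of 0.31, and 2 of its 8 genes, Cd53 (1.30) and Arhgdib (0.62), rose. The differences of the 8 ran from -0.45 (Cd48) to 1.30, so values relative to the mean depend on which genes are in it. Arhgdib did not pass under 8 of the 17 alternatives tried, each array left out except knock-in replicate 2 among them. Relative to this mean, the knock-in values of 8 of the 10 genes lay above all wild-type values, 0 lay below and 2 overlapped. Over all genes 3.72% lay above and 15.8% below, and the median difference was -0.34. Tyrobp was 1.56 ± 0.08 above the mean in knock-in and 0.96 ± 0.05 above it in wild-type, and Fcer1g 1.13 ± 0.08 and 0.42 ± 0.11 (SD, n = 3). The spread of both adaptors within a group was small on this scale, and the 2 groups were clearly apart. Fcgr4 had the largest relative difference of the 4 IgG receptors (1.52), followed by Fcgr2b (1.09), Fcgr3 (0.84) and Fcgr1 (0.28). The order of Fcgr4 and Fcgr2b depends on the offset. With an offset of 64 their differences, without the mean taken off, were 1.32 and 1.35. Relative differences of Marco and Msr1 were 1.57 and 1.28, and those of Cd68 (0.33) and Csf1r (-0.24) came from groups that overlapped. For 1 gene, 3 arrays against 3 cannot give an exact permutation p below 0.1.

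**Figure D3:**
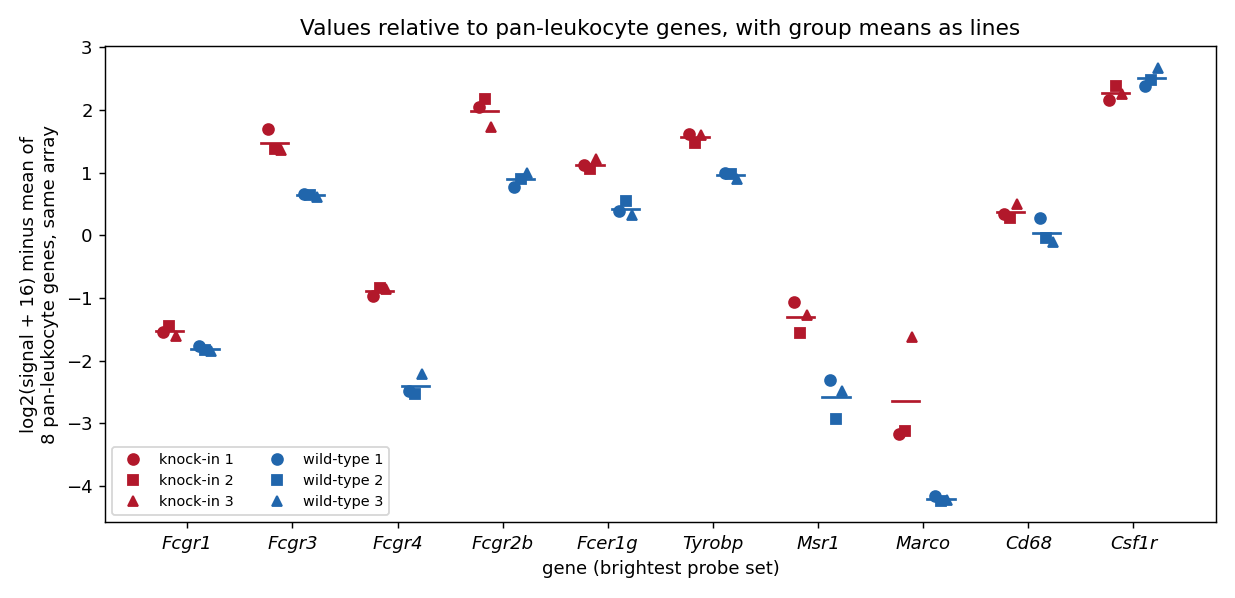
Log2(signal + 16) of each gene's brightest probe set minus the mean of 8 pan-leukocyte genes on the same array, with knock-in left of wild-type, markers for the replicate number and lines at the group means (n = 3). Knock-in points lie above all wild-type points for 8 genes, and the groups overlap for Cd68 and Csf1r.

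Set against the mean of 17 macrophage genes instead, the receptor genes divided. Fcgr4 (0.79), Fcgr2b (0.37), Msr1 (0.55) and Marco (0.84) lay above all wild-type values, where 1.25% of all genes did. Csf1r (-0.97) and Fcgr1 (-0.45) lay below all wild-type values, where 85.4% of all genes did, and Fcgr3, Fcer1g, Tyrobp and Cd68 overlapped between the groups. The mean of the macrophage list was 9.32 ± 0.36 in knock-in and 8.28 ± 0.18 in wild-type (SD, n = 3), a difference of 1.04 that the choice of its genes sets in part. Differences of the 17 ran from -0.99 (Aif1) to 4.20 (Cd14) with a median of 0.53, so places relative to this mean depend on a few strong risers. Relative to it, the median over all genes was -1.06.

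Changes of pairs of genes were compared within each array over 8 pairs, as exact two-sided permutation tests in which the smallest p is 0.1, or 0.16 after adjustment over the pairs. The log2 ratio of Fcgr1 to Fcgr2b was -3.52 ± 0.16 in knock-in and -2.70 ± 0.15 in wild-type (SD, n = 3), and the groups did not overlap (exact permutation p = 0.1, adjusted p = 0.16). For Fcgr4 against Fcgr2b it was -2.88 ± 0.25 in knock-in and -3.30 ± 0.11 in wild-type (exact permutation p = 0.1). That difference of 0.42 became -0.03 with an offset of 64. Fcgr3 against Fcgr2b overlapped between the groups, with a difference of -0.25 (exact permutation p = 0.3), and so did Fcer1g against Tyrobp, with a difference of 0.11 (exact permutation p = 0.2). Against Csf1r, the ratios of Fcgr1, Msr1 and Marco were higher in knock-in by 0.52, 1.52 and 1.81 without overlap (exact permutation p = 0.1 each). The value of Marco is set by the offset, since its wild-type signals lie below it, and was 3.73 with an offset of 1 and 0.83 with 64. The ratio of Cd68 to Csf1r differed by 0.58 and overlapped (p = 0.2, exact permutation).

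Of 11 other Fc receptors measured, 1 rose and 1 fell, with a median log2 difference of -0.14, a share in each direction near the 8.48% and 9.05% of all genes. Fcer1a, the IgE-binding chain of FceRI that pairs with the Fcer1g chain on mast cells and basophils, read 442, 463 and 494 in knock-in, against 54.9, 41.5 and 32.2 in wild-type. Its log2 difference of 3.05 ± 0.15 passed (limma, adjusted p = 1.85e-05). Fcrls, an Fc receptor-like scavenger receptor, fell, with 45.8, 53.5 and 35.4 in knock-in against 157, 264 and 227 in wild-type (-1.91 ± 0.20, adjusted p = 7.52e-04). Fcgrt, the neonatal Fc receptor that recycles IgG, had a difference of 0.47 and did not pass (adjusted p = 0.111), but passed without wild-type replicate 2 (0.0348) and after median centring (0.0397).

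Receptors of other ligands that use the Fcer1g or Tyrobp chain rose in part. Of 16 measured, 7 rose, 1 fell and 8 did not pass, with a median of 0.27. Without knock-in replicate 3 or wild-type replicate 3, 4 rose, and 0 fell without knock-in replicate 1 or 2 or wild-type replicate 2 or 3. Clec4d, a C-type lectin of myeloid cells, read 1897, 1019.6 and 1829 in knock-in, against 39.0, 39.9 and 32.0 in wild-type, a difference of 4.87 ± 0.22. Trem1, an amplifier of neutrophil and monocyte responses, differed by 2.59 ± 0.24 (limma, adjusted p = 4.96e-04). Its wild-type signals of 25.6, 19.7 and 34.6 lay near the offset, and its difference ran from 1.75 to 3.14 over the alternatives tried. Clec4e, the receptor Mincle, read 268, 206 and 408 in knock-in, against 0.555, 11.4 and 7.71 in wild-type (limma, adjusted p = 1.41e-04). Its wild-type signals are below the offset, and its log2 difference was 5.68, 3.76 and 2.31 with offsets of 1, 16 and 64.

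The signalling genes downstream of Fc receptors also rose in part. Of 17 measured, 5 rose, 1 fell and 11 did not pass, with a median of 0.31. The number that rose was 2 without knock-in replicate 1 or 3 or wild-type replicate 3, and 3 without wild-type replicate 1 or 2. Inpp5d, the phosphatase SHIP1 that works below Fcgr2b, rose by 1.02 ± 0.16 and Rac2, a GTPase of phagocytosis and oxidase assembly, by 0.82 ± 0.13 (limma, adjusted p = 0.00494 and 0.00506). Blnk, an adaptor of B cell receptor signalling, fell by 1.19 ± 0.11. Syk, the kinase recruited by both adaptors and named after its values were seen, rose by 0.75 ± 0.18 (adjusted p = 0.0261), a call lost under 5 of 17 alternatives, with an adjusted p of up to 0.0940 without knock-in replicate 3.

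Other scavenger receptors rose in part. Of 18 measured, 6 rose, 0 fell and 12 did not pass, with a median of 0.14, and without knock-in replicate 1 or 3 or wild-type replicate 3, 3 rose. Cd163, the receptor for haemoglobin-haptoglobin complexes, read 2709, 1869 and 2823 in knock-in, against 225, 504 and 406 in wild-type, a difference of 2.70 ± 0.27 (limma, adjusted p = 6.58e-04). Stab1 and Lrp1, endocytic receptors of macrophages and other cells, rose by 0.99 ± 0.16 and 0.87 ± 0.16. Of 16 phagosome and lysosome genes, 9 rose, 1 fell and 6 did not pass, with a median of 0.51, and 5 rose without knock-in replicate 3 or wild-type replicate 3. Lgmn, a lysosomal protease, rose by 1.66 ± 0.19 and Acp5, an acid phosphatase, by 0.78 ± 0.12, while Gpnmb, which melanocytes also make, fell by 1.07 ± 0.12.

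The genes of both Csf1r ligands did not pass. Csf1 had a log2 difference of -0.28 ± 0.22 (95% interval -0.77 to 0.22) and Il34 one of -0.29 ± 0.16, (limma, adjusted p = 0.461 and 0.263). Both were named after their values were seen. Of the 14 measured ligands and myeloid regulators, 3 rose, 1 fell and 10 did not pass, with a median of 0.22. Over all genes 8.48% rose and 9.05% fell. The neutrophil growth factor Csf3 read 106, 106 and 90.2 in knock-in, against 28.4, 3.76 and 6.31 in wild-type, and its log2 difference was 3.33, 2.11 and 1.11 with offsets of 1, 16 and 64. Its receptor Csf3r rose by 2.07 ± 0.21, and Maf, a transcription factor of resident macrophages and other cells, fell by 0.68 ± 0.10.

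**Figure D4:**
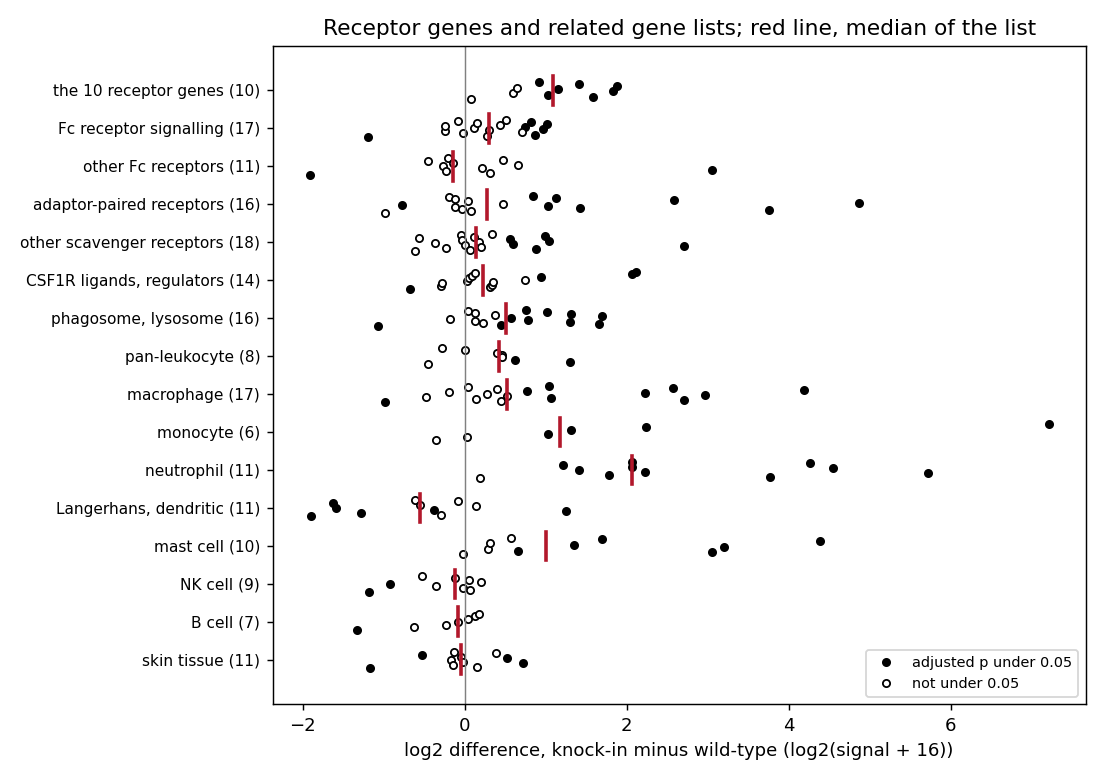
Log2 difference (knock-in minus wild-type, log2(signal + 16)) of the 10 receptor genes and of 15 related gene lists, 1 point a gene, filled where the adjusted p was under 0.05, with a red line at each median and the number of measured genes in brackets. The median of the 10 receptor genes is 1.09, against 0.53 for macrophage, 2.07 for neutrophil and -0.55 for Langerhans and dendritic cell genes.

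Markers of cell types that carry these receptors were read as well, and their lists went in different directions. Of 17 macrophage genes, 8 rose, 1 fell and 8 did not pass, with a median of 0.53, and the summed signal was 16667 to 25589 in knock-in against 8714 to 12568 in wild-type. Cd14 (4.20 ± 0.23), the lipopolysaccharide co-receptor, and Lyve1 (2.58 ± 0.13), which lymphatic vessels also make, had the smallest p-values of that list. The gene that fell was Aif1 (-0.99 ± 0.25, limma adjusted p = 0.0358), and 0 fell with any array left out other than knock-in replicate 3. Cx3cr1 (-0.47) also lay below all wild-type values but did not pass, and Folr2 (-0.19) and Ms4a7 (0.04) overlapped between the groups. Adgre1, an adhesion receptor used as a macrophage marker, read 417, 270.0 and 527 in knock-in, against 275, 426 and 377 in wild-type, and did not pass (0.14 ± 0.24, 95% interval -0.40 to 0.68). Ptprc, the leukocyte antigen CD45, differed by 0.01 ± 0.20, with both groups overlapping. Both were named after their values were seen, and both took the other sign with some arrays left out.

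Neutrophils, monocytes and mast cells also carry Fcer1g and some of the IgG receptors. Of 11 neutrophil genes, 10 rose and 0 fell, with summed signals of 17487 to 22031 in knock-in against 1202 to 1612 in wild-type. S100a9, S100a8 and Stfa2l1 differed by 5.72, 4.26 and 3.78. S100a8 and S100a9, with knock-in means of 9373.5 and 6055, made up most of the knock-in sum. The sum therefore mainly follows these genes, and whether neutrophils were their source in bulk skin was not tested. The gene that did not pass was Ltf (0.19 ± 0.36). Of 6 monocyte genes 4 rose and 0 fell, led by Chil3 (7.21), Plac8 (2.24) and Vcan (1.32), while Ccr2 (-0.36) and Itga4 (0.03) did not pass. The sums were 6459 to 12232 in knock-in against 1935 to 2437 in wild-type, and Chil3 alone read 2700 to 6577 in knock-in. Of 10 mast cell genes 6 rose and 0 fell, led by the tryptases Tpsab1 (4.39) and Tpsb2 (3.20), with sums of 3614 to 4388 in knock-in against 1133 to 1589 in wild-type, and 3 rose without probe sets that may read several transcripts. Wild-type signals of Chil3, Tpsab1 and Tpsb2 lay near the offset. With offsets of 1 and 64 the difference of Chil3 was 8.23 and 5.84 and that of Tpsab1 5.31 and 3.15. The difference of Tpsb2 ran from 2.18 to 3.90 over the alternatives tried. The part of each cell type in the receptor signals was not tested.

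Of 11 Langerhans and dendritic cell genes 1 rose, Clec10a (1.26), and 5 fell, with Cd74 at -1.90, Cd209a at -1.28 and H2-Ab1 at -1.63. Cd207 (-1.59) and Epcam (-0.38) were the other genes that fell. Sums of the list were 3593 to 4677 in knock-in against 4889 to 7549 in wild-type. Without knock-in replicate 1 or 3, 0 rose, and without probe sets that may read several transcripts 1 fell. Natural killer cells carry Fcgr3 and both adaptors. Of their 9 measured genes 0 rose and 2 fell, Nkg7 (-1.18) and Klrd1 (-0.93), where 9.05% of all genes fell. Sums of the NK genes were 142 to 214 in knock-in against 223 to 321 in wild-type. Means of 4 of them (Gzma, Eomes, Klra8 and Klre1) lay below the offset in both groups. Eomes (-0.52) did not pass, and no NK gene fell without knock-in replicate 1 or 2 or without wild-type replicate 2 or 3. B cells carry Fcgr2b as their Fc receptor. Of their 7 measured genes 0 rose and 1 fell, Jchain (-1.33), where 9.05% of all genes fell, while Cd79b (-0.62) and Cd79a (0.17) did not pass, and the sums were 90.9 to 135 in knock-in against 118 to 219 in wild-type. Jchain did not pass without any 1 of the 3 knock-in arrays or without wild-type replicate 2 or 3, and Cd79b passed without wild-type replicate 1 (-0.80, adjusted p = 0.0399). With an offset of 1 and of 64 the difference of Nkg7 was -1.79 and -0.59, and that of Jchain -2.0006 and -0.69. The means of Cd79a and Cr2 lay below the offset in both groups, and the signals of Cd79a were between 0.779 and 11.5 on the 6 arrays. Of 11 skin tissue genes 2 rose, Krt14 (0.73) and Krt5 (0.52), and 2 fell, Krt15 (-1.17) among them. Over all genes 8.48% rose and 9.05% fell. Sums of the skin genes were 72955 to 90153 in knock-in against 71444 to 86808 in wild-type. With any knock-in array or wild-type replicate 2 or 3 left out, 1 of them fell.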

How the data were processed

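Total RNA from skin of 3 knock-in and 3 wild-type samples was hybridised to 1 array each. The authors deposited a linear MAS5 intensity for each probe set, per the submitters' processing notes. The MAS5 settings were not given in the sources used here, and the table has no detection calls. The 2% trimmed mean was 150 on every array, so no further scaling was applied. The number of arrays limits the precision.

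Tests were run on log2(signal + 16) for all 45037 non-control probe sets, using limma 3.58.1 under R 4.3.3 (lmFit and eBayes with trend, two-sided, Benjamini-Hochberg over all probe sets, threshold 0.05). No filter was used, so that every receptor probe set was tested. Probe sets were named by the platform annotation, and 34945 have 1 symbol. Lists were read with the brightest probe set of each gene. Of the genes on them the text names the 3 with the smallest unadjusted p, and others after their values were seen. List members with no probe set of a single symbol here were not analysed here. Genes and lists were chosen with earlier results of these data known. In simulated arrays of 45037 probe sets, 54% of log2 differences of 1 and 98% of those of 2 were recovered, and 10% of those of 0.5. Few probe sets differed in the simulation, with 134 calls against 6224 in the data. The adjusted threshold was therefore stricter there, and these shares do not give the recovery in the data. Alternatives were other offsets, median centring, quantile normalization, 2 filters against dim signals, no trend, array weights, 1 probe set per gene, leaving out shared probe sets, a replicate block and leaving out each array. The values of all groups come from the 6 deposited columns.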

Additional observations from a re-analysis of the deposited data

How the results depend on the processing

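The direction of every receptor probe set that passed was the same under all alternatives run. The number of receptor genes that rose was 7, and 3 to 9 with an array left out, 4 without the variance trend and 4 with the replicate number as a block. It was 6 to 9 under the other alternatives. Receptor probe sets that rose numbered 13, and 9 to 16 with an array left out, 7 with 1 probe set per gene and 8 without probe sets that may read several transcripts, where fewer probe sets were tested. Over all probe sets, 2705 rose and 3519 fell. These counts were 1561 to 2303 and 1608 to 2836 with an array left out, and 4103 and 2097 after median centring, which moved all differences up by 0.13. They were 1671 and 1804 with 1 probe set per gene and 1612 and 1794 with the block, and 1803 rose without shared probe sets. Deviations of same-numbered arrays from their group means correlated at -0.13, -0.15 and -0.01, so no pairing by replicate number was seen. With 3 arrays a group, this cannot show that same-numbered samples were handled apart. With the block, Fcer1g (adjusted p = 0.0721), Tyrobp (0.0776), Marco (0.0577), Syk (0.0591), Arhgdib (0.0939) and Krt5 (0.0600) did not pass. Without the trend, Fcer1g (0.0521), Tyrobp (0.0575), Marco (0.0631) and Arhgdib (0.0771) did not pass. Fcgr1 passed after either filter on dim probe sets, quantile normalization or median centring (0.0324 to 0.0472), and Cd68 after median centring (0.049986). Signs turned for values near 0. With an array left out, Fcgr1 1436625_at lay between -0.16 and 0.26, Csf1r 1419872_at between -0.11 and 0.22, Csf1r 1419873_s_at between -0.24 and 0.19, Adgre1 between -0.071 and 0.39, Ptprc between -0.17 and 0.18 and Cd79a between -0.043 and 0.31. Csf1r 1419873_s_at was 0.094 after median centring, and Ptprc was -0.0023 after quantile normalization and -0.015 with array weights. Of the pairs, Fcgr4 minus Fcgr2b was -0.028 with an offset of 64, and Fcgr3 minus Fcgr2b was 0.051 with the mean over probe sets. Without shared probe sets, where the Fcgr2b probe set that remains read below 6, Fcgr1 minus Fcgr2b was 0.83 and Fcgr3 minus Fcgr2b was 1.39.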
